A study of Homo sapiens with 8 samples.

Results

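HOTSCRAMBL is a long non-coding RNA that was edited in human acute myeloid leukaemia cells in 2 ways, and the RNA recovered after one edit was compared directly with that recovered after the other. The comparison used 4 of the 8 libraries of the series, chosen by their titles: 2 with HOTSCRAMBL knockout by Cas9 (HOTSCRAMBL KO) and 2 with cytosine base editing of HOTSCRAMBL (HOTSCRAMBL CBE). The other 4 libraries, AAVS1 KO and AAVS1 CBE, were used to ask whether the editor by itself gave the same difference. AAVS1 is a site within the gene PPP1R12C that serves here as the control target. In every group replicate 1 was labelled MOLM13 and replicate 2 was labelled OCI-AML4, both established lines from acute myeloid leukaemia, and each pair of same-numbered libraries was treated as a pair in the model. All cells had been nucleofected with an editor and guide RNA, were labelled wild type apart from the edit, and were collected on day 3 after editing. Guide sequences and editing rates were not used here.

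Cas9 cuts both strands of DNA, and the cell closes the cut with small insertions or deletions. A cytosine base editor joins a Cas9 that does not cut both strands to a deaminase, so that C is read as T near the guide without a double-strand cut. Acute myeloid leukaemia cells are halted between progenitor and mature states. HOXA9 and its partner MEIS1 hold many such leukaemias in a self-renewing progenitor state, whereas CEBP factors and KLF4 drive monocyte and granulocyte maturation. The gene lists below therefore cover progenitor genes, maturation genes, the cell cycle, stress responses and the machinery of protein and energy supply.

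The RNA came from chromatin isolation by RNA purification (ChIRP), in which fixed and sonicated lysate is hybridised with biotinylated probes and the RNA caught on beads is sequenced. The labels do not state the target of the probes and no input library was analysed here, so every value is an amount of RNA in a pull-down. Total counts ran from 20548300 to 37970163 per library. Levels are depth-scaled counts (CPM, with TMM scaling), given for replicate 1 and then replicate 2, and differences are log2 values of KO minus CBE. A gene is called where the Benjamini-Hochberg adjusted p of edgeR's quasi-likelihood test was under 0.05. The table holds 0 genes named HOTSCRAMBL, so the edit itself was not checked by the level of its target. Levels of one gene in bulk libraries cannot tell fewer cells of a type apart from less RNA per cell, and nothing in the labels says whether the 2 libraries of a group came from separate cultures beyond their line labels. The p-values therefore measure the spread between these libraries, which may be technical. Genes are named from 115 that a rule picked among the called genes; any other gene was added once its values were known.

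Libraries of 1 group labelled as different lines correlated more closely than libraries of different groups labelled as the same line. The median Pearson correlation across genes was 0.901 within a group between lines, 0.878 between groups within a line and 0.875 between groups and lines, and 119 genes were called between the line labels. These values leave the line labels in doubt, and with them the pairing of libraries by line and the replication of each result over 2 lines. The cells carried RNA of the myeloid lineage. CD33, a surface marker of acute myeloid leukaemia, stood at 168 and 135 CPM in HOTSCRAMBL KO and 149 and 149 in HOTSCRAMBL CBE. The 11 markers of leukaemia and myeloid identity summed to between 1090 and 1096 unscaled CPM in HOTSCRAMBL KO and between 857 and 968 in HOTSCRAMBL CBE, against 719 to 797 in the controls. Of these, CSF2RA and IL3RA were at 0 in all HOTSCRAMBL libraries, under both of their records in the table. Reads that matched several positions were not counted, so for genes with 2 records a value of 0 does not show that the RNA was absent. T, B and megakaryocyte markers summed to at most 22.3 CPM in any HOTSCRAMBL library, and erythroid, epithelial and fibroblast markers to at most 5.14. Epithelial markers summed to at most 0.341 CPM in HOTSCRAMBL KO and to between 2.50 and 5.14 in HOTSCRAMBL CBE, and the T cell gene TRAC was called higher in CBE (4.9 and 1.16 against 12.2 and 9.72 CPM; log2 difference −1.88, edgeR adjusted p 0.0466); their part in the results was not tested. PPP1R12C (ENSG00000125503, chromosome 19, 55090914 to 55117637), which holds the control site, had 235 and 242 CPM in HOTSCRAMBL KO and 168 and 135 in HOTSCRAMBL CBE, against 365 to 387 in the controls (log2 difference 0.65, SE 0.124, edgeR adjusted p 0.00086). Its call between the HOTSCRAMBL edits was lost without HOTSCRAMBL KO replicate 2 (adjusted p 0.0536) and without HOTSCRAMBL CBE replicate 2 (adjusted p 0.0751).

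The RNA recovered differed between the edits of HOTSCRAMBL. Of 24057 genes tested, 2037 were called (8.47%), 1081 of them higher in KO (4.49%) and 956 higher in CBE (3.97%). The larger share in KO was not kept under every alternative. Of the 2037, 2032 (99.75%) differed in the same direction in both same-numbered pairs. The call itself favours genes whose pairs go the same way, so this share is not separate evidence of replication. The Pearson correlation between the differences of the pairs was 0.865 over the called genes and 0.208 over all tested genes. Of the called genes, 1062 differed by at least 2-fold (677 higher in KO and 385 higher in CBE). Over all tested genes the median log2 difference was −0.02 and 48.8% were higher in KO; TMM scaling centres this value. Leaving a HOTSCRAMBL library out leaves its group with 1 library, which the fit assumes to vary like the other groups. Leaving out any single library lowered the count. The drop was larger for each HOTSCRAMBL library than for any AAVS1 library, and no AAVS1 library stood out. A fit of the 4 HOTSCRAMBL libraries alone called 569. With all libraries thinned to the smallest total the count was 1917, so the unequal depths alone moved it little.

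No such difference was called between the editors at the control site. AAVS1 KO against AAVS1 CBE gave 0 calls (0%) by edgeR among the same 24057 genes, with 918 genes (3.82%) at an unadjusted p under 0.05. DESeq2 on the same genes called 35. Among the 2037 genes called between the HOTSCRAMBL edits, the median absolute log2 difference was 1.04, whereas the same genes had a median absolute difference of 0.145 between the AAVS1 controls. These genes were selected for their HOTSCRAMBL difference, which by itself widens the gap between the medians. Of these genes 50.5% had the same sign in the control comparison, and 79 (3.88%) had an unadjusted p under 0.05 there. The test of the HOTSCRAMBL difference beyond the AAVS1 difference called 767 genes (3.19%), 419 higher in KO (1.74%) and 348 higher in CBE (1.45%). That test uses the HOTSCRAMBL libraries again, and 740 of the 2037 genes were called in both.

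**Figure D1:**
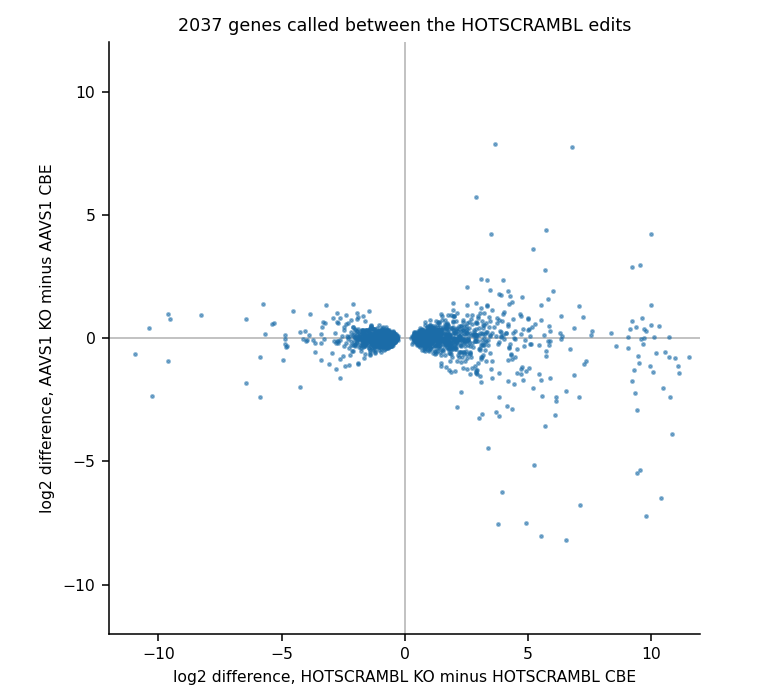
Each point is one of the 2037 genes called between the HOTSCRAMBL edits, with its log2 difference of HOTSCRAMBL KO minus HOTSCRAMBL CBE on the horizontal axis and of AAVS1 KO minus AAVS1 CBE on the vertical axis. Most points lie along the horizontal line, with a median absolute control difference of 0.145, against 1.04 along the horizontal axis. The genes were selected on the horizontal axis only, which by itself widens this gap.

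Of the 28 gene lists, mitosis genes, replication-dependent histone genes, HOXA cluster genes, stem-cell score genes and interferon-stimulated genes had medians lower than −1 in the fitted log2 difference, that is towards CBE. The stem-cell score median of −1.11 rests on 12 tested genes. It was −0.84 and −0.77 in the pairs and −0.85 without HOTSCRAMBL CBE replicate 1. Without HOTSCRAMBL KO replicate 1, the HOXA cluster median was −0.88 and the interferon median −0.91. The interferon median was also −0.99 in pair 2. HLA class II, p53 target, lysosome, NF-kB, monocyte and immediate early genes had the highest medians. The counts of called members given below stand beside 8.47% called over all tested genes, 4.49% higher in KO and 3.97% higher in CBE. The HLA class II median of 1.09 rests on 5 tested genes, of which 1 was called, and it was −0.43 without HOTSCRAMBL CBE replicate 2 and 2.64 without HOTSCRAMBL CBE replicate 1, so it has no settled direction. The monocyte median of 0.36 was 0.81 without HOTSCRAMBL CBE replicate 2, and the immediate early median of 0.36 was 0.15 without HOTSCRAMBL CBE replicate 1.

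**Figure D2:**
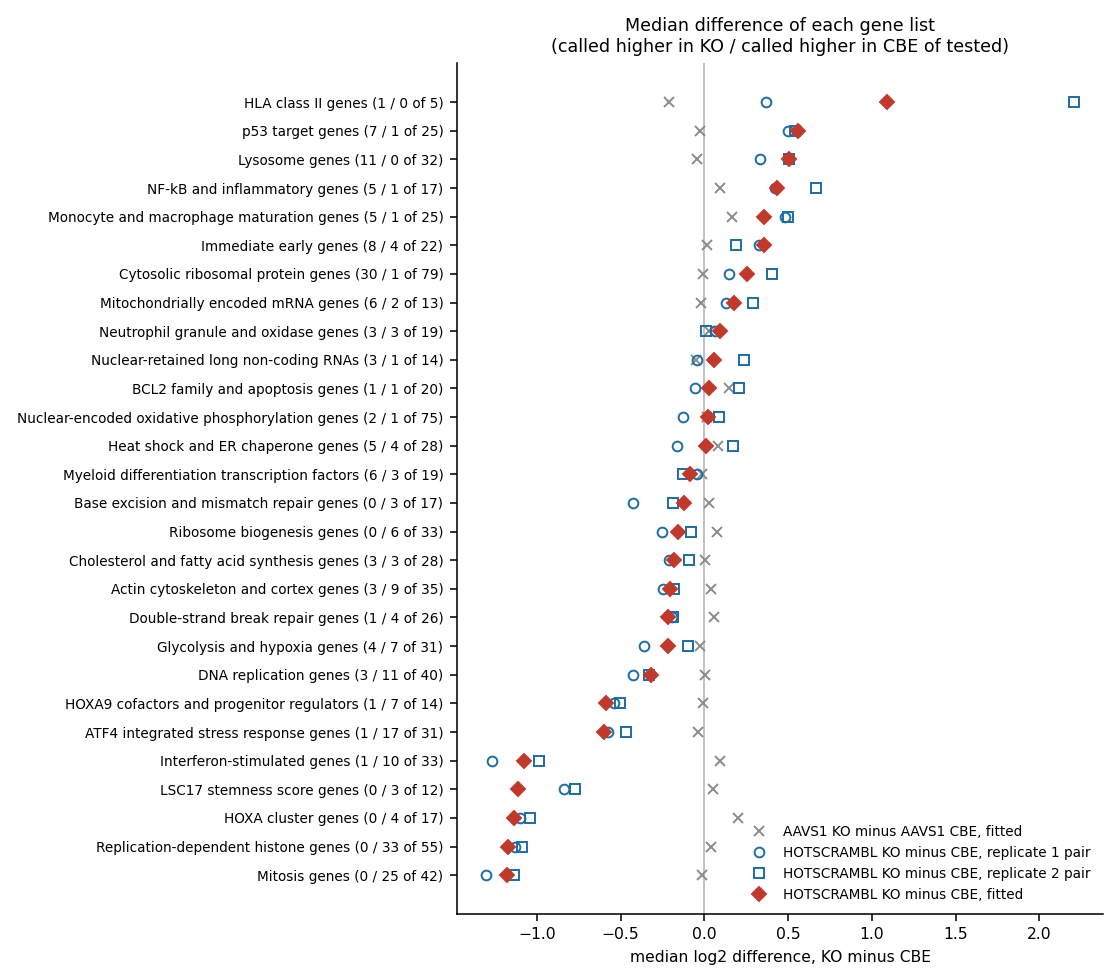
For each of the 28 gene lists, red diamonds give the median fitted log2 difference of HOTSCRAMBL KO minus HOTSCRAMBL CBE, blue open symbols the median in each same-numbered pair, and grey crosses the median of AAVS1 KO minus AAVS1 CBE. The numbers after each name are members called higher in KO, called higher in CBE and tested; mitosis genes sit lowest at −1.18 with 0 and 25 of 42 called.

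Among single genes, the 10 with the smallest p in each direction included genes of several programmes. MT-ND5 (ENSG00000198786, chromosome MT, 12337 to 14148), a subunit of respiratory complex I, had the smallest p of all, with 28054 and 27476 CPM in HOTSCRAMBL KO and 6012 and 6129.8 in HOTSCRAMBL CBE, against 8504 to 8852 in the controls (log2 difference 2.19, SE 0.0591, edgeR adjusted p 1.71e-19). It was therefore above the controls after one edit and below them after the other. TSPOAP1 (ENSG00000005379, chromosome 17, 58301228 to 58328795), which binds the mitochondrial translocator protein, had 4599 and 4369 CPM in KO and 1374 and 1416 in CBE (log2 difference 1.68, SE 0.072, edgeR adjusted p 7.83e-15). XACT (ENSG00000241743, chromosome X, 113616300 to 114059289), a long non-coding RNA of the X chromosome, had 1498 and 1459 CPM in KO and 369 and 334 in CBE (log2 difference 2.07, SE 0.0931, edgeR adjusted p 1.57e-14). Both genes overlap other annotated genes over a small part of their exons, and the counts carry no strand. ARC and RASD1, which are known as rapidly induced genes, differed most in size among the 20. ARC had 148 and 106 CPM in KO and 0.665 and 0 in CBE, where the controls had 5.09 to 11.8, so it was lower in CBE than in any control library (log2 difference 8.39, SE 0.46, edgeR adjusted p 5.6e-13). With 1 CBE library at 0, the fitted size is uncertain and ran from 7.83 to 14.34 over the alternatives. RASD1 (ENSG00000108551, chromosome 17, 17494437 to 17496395) had 111.9 and 142 CPM in KO and 0.998 and 0.158 in CBE (log2 difference 7.57, SE 0.424, edgeR adjusted p 1.13e-12). IER5L, a relative of the immediate early gene IER5, was higher in KO as well (162 and 143 against 8.98 and 8.86 CPM; log2 difference 4.10, edgeR adjusted p 3.81e-12), and its antisense partner shares 41.8% of its exonic bases.

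SYNPO2 (ENSG00000172403, chromosome 4, 118850688 to 119061247), an actin-binding protein, had the smallest p among genes higher in CBE. It had 68.3 and 72.5 CPM in KO, 722 and 644 in CBE and 258 to 286 in the controls (log2 difference −3.28, SE 0.13, edgeR adjusted p 2.46e-15), so the edits lay on opposite sides of the controls. NUCB2 (ENSG00000070081, chromosome 11, 17208153 to 17349980), a calcium-binding protein of the Golgi and precursor of nesfatin, had 85.8 and 91.6 CPM in KO and 341 and 315 in CBE (log2 difference −1.89, SE 0.135, edgeR adjusted p 1.6e-10). SHANK1, a scaffold protein best known from synapses, had 95 and 78.2 CPM in KO and 275 and 311 in CBE, against 254 to 309 in the controls (log2 difference −1.76, SE 0.138, edgeR adjusted p 1.09e-09). Its CBE libraries lay at the level of the controls and its KO libraries below them. MLC1, a membrane protein, and SHOX2, a homeobox factor, had log2 differences of −2.12 and −1.99 (edgeR adjusted p 3.07e-09 and 3.14e-09). The remaining genes of the 20 belong to lists and are described with them.

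More than 1 in 2 of the mitosis genes were called, and all of these calls were lower in KO. The fitted difference was below 0 for all 42 tested, of which 25 were called and 0 called the other way, although 4 of the 42 were higher in KO in pair 2 (0 in pair 1). The list had a median log2 difference of −1.18 (−1.30 and −1.13 in the pairs). The same genes had a median of −0.01 between the AAVS1 controls, and 16 were called in the test beyond AAVS1. ASPM (ENSG00000066279, chromosome 1, 197084121 to 197146694), a spindle pole protein, had 41.2 and 33.2 CPM in HOTSCRAMBL KO, 145 and 126 in HOTSCRAMBL CBE and 58.4 to 79.3 in the controls (log2 difference −1.86, SE 0.186, edgeR adjusted p 7.62e-08). CENPF (ENSG00000117724, chromosome 1, 214603185 to 214664574), a kinetochore protein, had 168 and 158 CPM in KO, 405 and 344 in CBE and 232 to 335 in the controls (log2 difference −1.19, SE 0.12, edgeR adjusted p 9.59e-08). TOP2A, the topoisomerase that untangles chromosomes, had 67.5 and 58.6 CPM in KO and 188 and 176 in CBE (log2 difference −1.53, SE 0.16, edgeR adjusted p 1.97e-07). PLK1 (ENSG00000166851, chromosome 16, 23677656 to 23690367), a kinase that drives mitotic entry, had 43.2 and 34.7 CPM in KO and 124 and 114 in CBE (log2 difference −1.61, SE 0.189, edgeR adjusted p 1.01e-06). For these 4 genes both KO libraries lay below all 4 controls and both CBE libraries lay above them. Against its own AAVS1 control, the list median was −0.60 in KO and 0.72 in CBE; both comparisons share libraries with the direct one. The count of 25 fell to 15 without HOTSCRAMBL KO replicate 1, 14 without HOTSCRAMBL CBE replicate 1 and 16 without HOTSCRAMBL CBE replicate 2, with 0 called higher in KO each time, and was 15 in the fit of the 4 HOTSCRAMBL libraries alone.

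Mitotic genes are known for a short promoter element, the cell cycle homology region, read here as the letters TTTGAA on either strand. RefSeq promoter windows (GRCh38.p14, 250 bases before to 50 after the start) were found for 36 of the 42 mitosis genes, and 26 of the 36 (72.2%) held the letters, against 15.4% of all 27305 promoters and 10.5% of the 12372 promoters of tested genes. The stretches upstream of the start are shown for 3 called genes, chosen after their values were seen because the letters lie close to the start; capitals mark the letters, and the last base is the one before the start.
PLK1: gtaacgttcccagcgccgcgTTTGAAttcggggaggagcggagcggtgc
BUB1B: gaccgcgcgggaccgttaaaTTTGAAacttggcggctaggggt
MKI67: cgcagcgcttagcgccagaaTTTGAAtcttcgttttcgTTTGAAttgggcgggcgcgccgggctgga
The PLK1 stretch is chr16:23678840-23678888, plus strand, that of BUB1B is chr15:40161026-40161068, plus strand and that of MKI67 is chr10:128126424-128126490, minus strand. The match starts 29 bases before the start of transcription in PLK1, 23 before it in BUB1B, and 47 and 29 before it in MKI67. BUB1B, a spindle checkpoint kinase, had 67.4 and 45.5 CPM in KO and 120.4 and 120.4 in CBE (log2 difference −1.10, SE 0.178, edgeR adjusted p 0.000113). MKI67, the proliferation antigen Ki-67, had 282 and 234 CPM in KO and 481 and 471 in CBE (log2 difference −0.89, SE 0.108, edgeR adjusted p 1.84e-06). Of the 23 called mitosis genes with a promoter window, 14 held the letters, and a match is a description of the window only.

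Replication-dependent histone genes, which are transcribed in S phase to package new DNA, were higher in CBE. Of 55 tested, 33 were called and all of these were higher in CBE, with a median of −1.17 (control median 0.04), and 13 were called beyond AAVS1. They made up 0.223% and 0.224% of the counts in HOTSCRAMBL KO and 0.469% and 0.515% in HOTSCRAMBL CBE, against 0.214% to 0.223% in the controls. On these unscaled shares the KO libraries lay near the controls and the CBE libraries above every other library. On the TMM-scaled levels the list summed to 2333 and 2408 CPM in KO, 4932 and 5344 CPM in CBE and 2061 to 2128 CPM in the controls, so there the KO libraries also lay above the controls. H3C2 (ENSG00000286522, chromosome 6, 26031589 to 26032099) had 48.8 and 102 CPM in KO, 273 and 350.1 in CBE and 77.5 to 107 in the controls (log2 difference −2.06, SE 0.16, edgeR adjusted p 9.06e-10). H3C7 had 36.9 and 41.3 CPM in KO and 165 and 210.2 in CBE (log2 difference −2.26, SE 0.19, edgeR adjusted p 3.91e-09), and the linker histone H1-4 had 304 and 344 in KO and 832 and 915 in CBE (log2 difference −1.43, SE 0.116, edgeR adjusted p 2.31e-09). Linker histones had 4 of 5 genes called and core histones 29 of 50. Histone genes have near-identical copies whose shared reads were not counted, so single members are uncertain. The count of 33 was 19 without HOTSCRAMBL KO replicate 1 and 19 without HOTSCRAMBL CBE replicate 1.

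DNA replication genes were mixed but leaned to CBE, with 11 of 40 called higher in CBE, 3 called higher in KO and a median of −0.32. PCNA, the sliding clamp of DNA polymerase, had 76.7 and 85.9 CPM in KO, 175 and 188 in CBE and 53.7 to 81.9 in the controls (log2 difference −1.16, SE 0.154, edgeR adjusted p 7.2e-06). Of the 6 MCM2-7 helicase genes, 4 were called, all higher in CBE. MCM3 had 146 and 141 CPM in KO and 225 and 229 in CBE, and the controls had 199 to 249, so its difference lay in the KO libraries (log2 difference −0.66, SE 0.13, edgeR adjusted p 0.00115). MCM7 had 132 and 108 CPM in KO and 191 and 187 in CBE (log2 difference −0.66, SE 0.135, edgeR adjusted p 0.00158). The call of MCM3 was lost without HOTSCRAMBL KO replicate 1 (adjusted p 0.0661) and without HOTSCRAMBL CBE replicate 2 (adjusted p 0.061), and that of MCM7 without HOTSCRAMBL KO replicate 2 (adjusted p 0.0582) and without HOTSCRAMBL CBE replicate 2 (adjusted p 0.0652). The genes called higher in KO were CCNE1 and CCNE2, cyclins of the G1 to S transition, and UHRF1, which maintains DNA methylation. CCNE2 had 256 and 313 CPM in KO and 171 and 152 in CBE (log2 difference 0.81, SE 0.132, edgeR adjusted p 0.000118), CCNE1 had 17.3 and 18.9 in KO and 6.71 and 6.61 in CBE (log2 difference 1.45, edgeR adjusted p 0.0279), and UHRF1 had 170.2 and 156 in KO and 115 and 108 in CBE (log2 difference 0.55, edgeR adjusted p 0.00936). CCNE2 shares 37.1% of its exonic bases with other genes, and CCNE1 and UHRF1 were named after their values were known. The count of 14 called replication genes was less stable than the mitosis count and lay between 3 and 9 whenever any of the 8 libraries was left out.

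**Figure D3:**
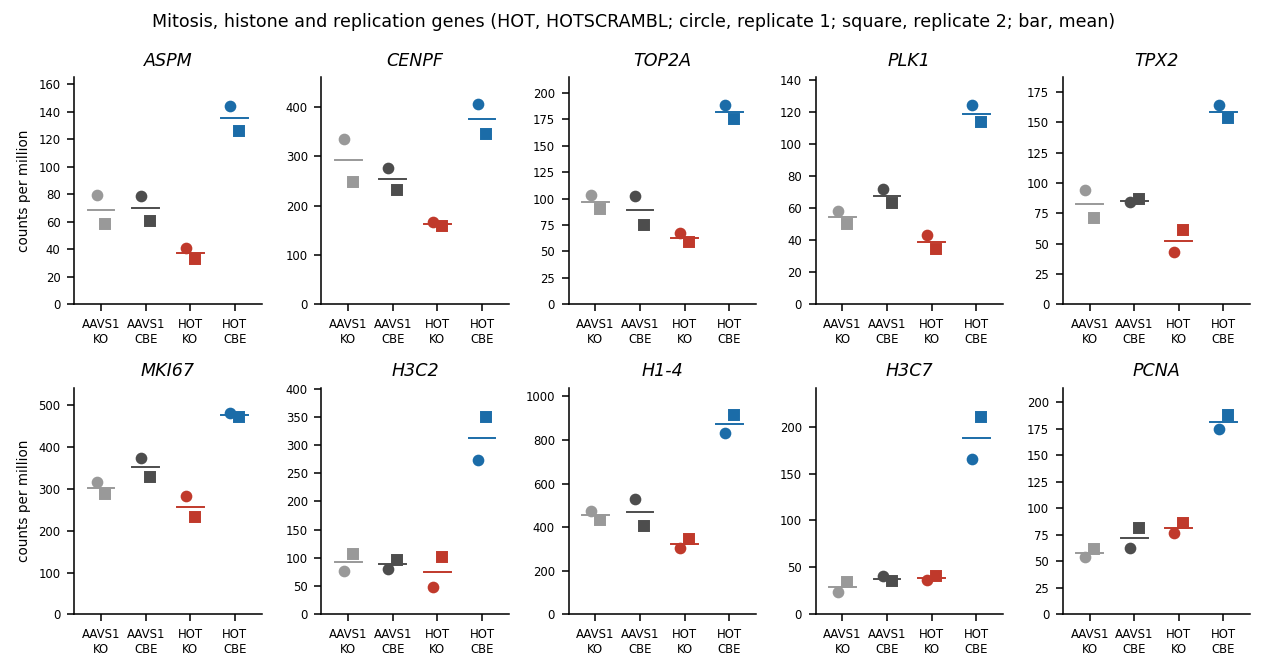
Levels in CPM in each library for 6 mitosis genes, 3 histone genes and PCNA (circles, replicate 1; squares, replicate 2; bars, the mean of the 2 libraries; axes start at 0). HOTSCRAMBL CBE is the highest group in each panel, as for TOP2A with 188 and 176 CPM, and HOTSCRAMBL KO is the lowest group for the 6 mitosis genes.

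Progenitor genes that were called were mostly lower in KO. The HOXA cluster, the homeobox genes that mark this leukaemia state, had 15 of 17 tested genes lower in KO and 4 called, all higher in CBE, with a median of −1.14 (−1.10 and −1.04 in the pairs; control median 0.20), and 2 were called beyond AAVS1. HOXA-AS2 (ENSG00000253552, chromosome 7, 27107777 to 27134302), a non-coding RNA between HOXA3 and HOXA4, had 15 and 17.9 CPM in HOTSCRAMBL KO, 51.2 and 53.1 in HOTSCRAMBL CBE and 42 to 52.5 in the controls (log2 difference −1.65, SE 0.272, edgeR adjusted p 0.000134). HOXA3 (ENSG00000105997, chromosome 7, 27106184 to 27152583) had 7.86 and 6.17 CPM in KO, 31.9 and 24.7 in CBE and 29.2 to 35.8 in the controls (log2 difference −2.02, SE 0.381, edgeR adjusted p 0.000692). For both, the KO libraries were low while the CBE libraries lay within or next to the control range. HOXA11 and HOXA13, the other called genes, lie towards the opposite end of the cluster. HOXA11 had 2.81 and 3.35 CPM in KO, 16 and 20 in CBE and 5.76 to 10.6 in the controls, so its CBE libraries were above the controls and its KO libraries below (log2 difference −2.54, SE 0.542, edgeR adjusted p 0.00268). HOXA13 lost its call without each of the 4 HOTSCRAMBL libraries (edgeR adjusted p 0.154, 0.172, 0.174 and 0.091, KO first) and under limma-voom (adjusted p 0.0571), and its difference between the controls was −1.10 (edgeR adjusted p beyond AAVS1 0.641). HOXA9 itself had 16.1 and 20.6 CPM in KO and 28.9 and 32.6 in CBE and was not called (log2 difference −0.72, edgeR adjusted p 0.183; singled out for its role). The count of 4 was 2 without HOTSCRAMBL KO replicate 1, without HOTSCRAMBL KO replicate 2 and without HOTSCRAMBL CBE replicate 2, and HOXA11 lost its call in each of these (adjusted p 0.0813, 0.0833 and 0.0649). Sense and antisense genes share exons here and the counts carry no strand, so their reads cannot be told apart.

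Cofactors of HOXA9 and other progenitor regulators had 8 of 14 tested genes called, 7 higher in CBE and 1 higher in KO (median −0.59, control median −0.01), and beyond AAVS1 5 were called higher in CBE and 1 higher in KO. MEIS1 (ENSG00000143995, chromosome 2, 66433452 to 66573869), the homeobox partner of HOXA9, had 143 and 159.7 CPM in KO, 451 and 345 in CBE and 233 to 264 in the controls (log2 difference −1.39, SE 0.13, edgeR adjusted p 2.91e-08). PBX3, a further partner, was above the controls after both edits, with 883 and 928 CPM in KO and 1425 and 1429.6 in CBE against 635 to 698 (log2 difference −0.66, SE 0.0841, edgeR adjusted p 4.05e-06). MEF2C, a transcription factor of progenitors, had 275 and 198 CPM in KO and 444 and 448 in CBE (log2 difference −0.92, SE 0.128, edgeR adjusted p 1.61e-05). BCL2, which holds back apoptosis, FLT3, a receptor of progenitors, SOX4 and GATA2 completed the called genes higher in CBE. BCL2 had 544 and 535 CPM in KO and 786 and 871 in CBE (log2 difference −0.62), and FLT3 had 187 and 173 in KO and 276 and 263 in CBE (log2 difference −0.58). ID2, an inhibitor of helix-loop-helix factors, was the one called higher in KO, with 62.2 and 65.8 CPM against 14.6 and 15.8 in CBE and 14.5 to 23.8 in the controls (log2 difference 2.06, SE 0.267, edgeR adjusted p 5.12e-06). Of the 17 genes of the LSC17 stem-cell score, 12 were tested and 3 were called, all higher in CBE. SOCS2, a suppressor of cytokine signalling, had 70.1 and 78.4 CPM in KO and 121 and 182 in CBE (log2 difference −1.01, SE 0.159, edgeR adjusted p 7.51e-05). The other called score genes were DNMT3B and CDK6 (log2 difference −1.22 and −0.46), and the count of 3 was 1 without HOTSCRAMBL CBE replicate 1. MYC, MYB and SPI1, singled out for their roles, had −0.03, −0.27 and 0.00 and were not called (edgeR adjusted p 0.884, 0.0516 and 1).

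Maturation factors split. Of 19 myeloid differentiation factors, 6 were called higher in KO and 3 higher in CBE (median −0.09). CEBPB had 133 and 143 CPM in KO and 55.7 and 51.8 in CBE (log2 difference 1.37, SE 0.189, edgeR adjusted p 1.45e-05), and CEBPD had 274 and 258 in KO and 107 and 134 in CBE (log2 difference 1.16, SE 0.152, edgeR adjusted p 6.53e-06). In these CEBP genes the CBE libraries were near the control range while both KO libraries were above it. IRF8, a factor of monocyte fate, had 779 and 744 CPM in KO and 499.9 and 511 in CBE (log2 difference 0.59, SE 0.0946, edgeR adjusted p 9.69e-05). KLF4 and CEBPA were also called higher in KO (log2 difference 1.23 and 0.42), whereas GFI1, RUNX1 and ETV6 were called higher in CBE (log2 difference −0.57, −0.42 and −0.48). The count of 9 was 4 without HOTSCRAMBL KO replicate 2 and 5 without each of HOTSCRAMBL KO replicate 1, HOTSCRAMBL CBE replicate 1 and HOTSCRAMBL CBE replicate 2.

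Monocyte genes were higher in KO in part. Of 25 tested, 18 were higher in KO, 5 were called higher in KO and 1, CD4, was called higher in CBE (median 0.36, control median 0.17); the same counts were called beyond AAVS1. SAMHD1 (ENSG00000101347, chromosome 20, 36890229 to 36951893), a nucleotide hydrolase abundant in myeloid cells, had 731 and 714 CPM in KO, 189 and 178 in CBE and 176 to 209 in the controls (log2 difference 1.98, SE 0.109, edgeR adjusted p 1.13e-12). LYZ (ENSG00000090382, chromosome 12, 69348381 to 69354234), the lysozyme of monocytes and granulocytes, had 506 and 702 CPM in KO, 148 and 152 in CBE and 116 to 142 in the controls (log2 difference 1.99, SE 0.121, edgeR adjusted p 9.15e-12); 34.7% of its exonic bases are shared with another gene. CCR2 (ENSG00000121807, chromosome 3, 46353864 to 46360940), the chemokine receptor of classical monocytes, had 1079 and 1793 CPM in KO and 346 and 608 in CBE (log2 difference 1.60, SE 0.0961, edgeR adjusted p 8.94e-12), and its level differed between replicates in each group. Its call was lost with no replicate block (adjusted p 0.213). CSF1R, the receptor for macrophage colony-stimulating factor, had 89.7 and 126 CPM in KO and 43.4 and 63.7 in CBE (log2 difference 1.03, SE 0.194, edgeR adjusted p 0.000711), and lost its call without HOTSCRAMBL KO replicate 2 (adjusted p 0.0967) and without HOTSCRAMBL CBE replicate 1 (adjusted p 0.12). The count of 6 was 3 in each of those cases. Other defining monocyte genes were close to 0 after both edits, and the examples were chosen after their values were known: S100A9 had 0.612 and 0.804 CPM in KO and 0.277 and 0.0787 in CBE, and CD68 had 0 and 0.358 in KO and 0.998 and 1.26 in CBE.

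Granule genes moved in both directions, 3 called higher in KO and 3 higher in CBE of 19 tested (median 0.09). CHI3L1 (ENSG00000133048, chromosome 1, 203178931 to 203186704), a secreted chitinase-like protein, had 1028 and 1034 CPM in KO, 220.4 and 229.7 in CBE and 353 to 402 in the controls (log2 difference 2.20, SE 0.102, edgeR adjusted p 3.88e-14). CYBB, the catalytic subunit of the phagocyte oxidase, had 68.7 and 66 CPM in KO and 17.9 and 12.3 in CBE (log2 difference 2.11, SE 0.275, edgeR adjusted p 5.95e-06), and NCF4, a cytosolic subunit of the same enzyme, had 321 and 334 in KO and 164 and 203 in CBE (log2 difference 0.84, SE 0.121, edgeR adjusted p 2.47e-05). Members of the serine protease family stored in primary granules, which are made at the promyelocyte stage, went the other way. AZU1 had 525 and 547 CPM in KO and 788 and 915 in CBE (log2 difference −0.67, SE 0.089, edgeR adjusted p 8.18e-06). ELANE, neutrophil elastase, had 156 and 189 in KO and 279 and 320.0 in CBE (log2 difference −0.81, edgeR adjusted p 8.2e-05), and CTSG, cathepsin G, had 46.6 and 50.7 in KO and 104 and 102 in CBE (log2 difference −1.08, edgeR adjusted p 0.000286). The related genes MPO and PRTN3, singled out beside them, were not called (log2 difference 0.09 and 0.24, edgeR adjusted p 0.897 and 0.0584).

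Lysosome genes that were called were higher in KO, with 11 of 32 called, all in that direction, and 26 of 32 above 0 (median 0.50, control median −0.05). Beyond AAVS1, 5 were called, all higher in KO. GRN (ENSG00000030582, chromosome 17, 44345246 to 44353106), progranulin, had 641 and 851 CPM in KO, 220.2 and 274 in CBE and 172 to 203 in the controls (log2 difference 1.59, SE 0.107, edgeR adjusted p 6.73e-11). MAN2B1, a lysosomal mannosidase, had 367 and 310.1 CPM in KO and 131 and 145 in CBE, with 228 to 263 in the controls, so the edits lay on opposite sides (log2 difference 1.30, SE 0.127, edgeR adjusted p 6.96e-08). CTSB, the protease cathepsin B, was raised over the controls after both edits, to 2504 and 2840.3 CPM in KO and 1561 and 1335 in CBE from 523 to 654 (log2 difference 0.88, SE 0.0964, edgeR adjusted p 4.32e-07); limma-voom did not call it between the edits (adjusted p 0.0708). NEU1, a sialidase, had 108 and 133 CPM in KO and 46.2 and 51.9 in CBE (log2 difference 1.29, SE 0.18, edgeR adjusted p 1.46e-05). The count of 11 was 6 without HOTSCRAMBL KO replicate 1 and without HOTSCRAMBL KO replicate 2, 7 without HOTSCRAMBL CBE replicate 1 and 4 without HOTSCRAMBL CBE replicate 2. Of 5 tested HLA class II genes only HLA-DMA was called, with 6.22 and 12.6 CPM in KO and 1.41 and 1.81 in CBE, and it lost the call without any of the 4 HOTSCRAMBL libraries (adjusted p 0.0534, 0.234, 0.159 and 0.194, KO first) and under limma-voom (adjusted p 0.0679).

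**Figure D4:**
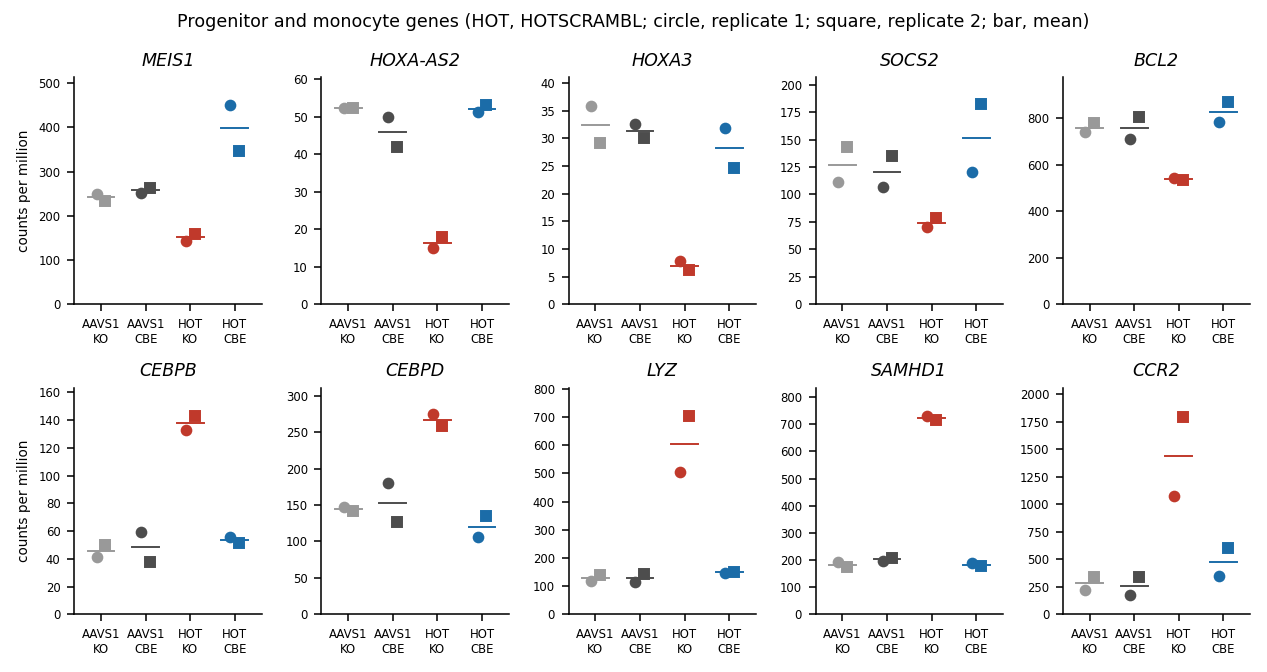
Levels in CPM in each library for 5 progenitor genes (MEIS1, HOXA-AS2, HOXA3, SOCS2, BCL2) and 5 monocyte-related genes (CEBPB, CEBPD, LYZ, SAMHD1, CCR2); circles are replicate 1, squares replicate 2, bars the mean of the 2 libraries, and axes start at 0. HOTSCRAMBL KO is the lowest group for the 5 progenitor genes and the highest for the 5 monocyte-related genes, for example SAMHD1 at 731 and 714 CPM.

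Stress programmes differed in kind between the edits. Of 25 p53 target genes tested, 21 were higher in KO, 7 were called higher in KO and 1 was called higher in CBE (median 0.56, 0.50 and 0.54 in the pairs, control median −0.02), and 7 were called higher in KO beyond AAVS1. PMAIP1 (ENSG00000141682, chromosome 18, 59899996 to 59904305), which encodes the apoptosis protein NOXA, had 182 and 203 CPM in HOTSCRAMBL KO, 37 and 48.9 in HOTSCRAMBL CBE and 39.9 to 58.2 in the controls (log2 difference 2.17, SE 0.169, edgeR adjusted p 8.52e-10). PLK2 (ENSG00000145632, chromosome 5, 58453982 to 58460139), a stress-induced kinase, had 136 and 99.3 CPM in KO and 14.3 and 8.86 in CBE (log2 difference 3.31, SE 0.267, edgeR adjusted p 1.93e-09). MDM2, the ligase that degrades p53, had 402 and 450.3 CPM in KO and 260.3 and 242 in CBE (log2 difference 0.77, SE 0.112, edgeR adjusted p 3.15e-05), and CDKN1A, the cell cycle inhibitor p21, had 243 and 248 in KO and 121 and 157 in CBE (log2 difference 0.83, SE 0.132, edgeR adjusted p 9.41e-05). For PMAIP1, MDM2 and CDKN1A the CBE libraries lay close to or within the control range, 252 to 289 for MDM2 and 120.0 to 163 for CDKN1A. ZMAT3 had 78.7 and 82.6 CPM in KO and 29.1 and 27.3 in CBE, and the controls had 42.7 to 46.6 (log2 difference 1.51, SE 0.212, edgeR adjusted p 1.73e-05). BBC3, which encodes the apoptosis protein PUMA, was the member called higher in CBE (382 and 493 against 432 and 706 CPM; log2 difference −0.35, edgeR adjusted p 0.0392), and its groups overlapped, with replicate 2 above replicate 1 after both edits. The count of 8 was 5 without HOTSCRAMBL CBE replicate 1.

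Immediate early genes, which respond within minutes to signals and stress, had 12 of 22 called, 8 higher in KO and 4 higher in CBE (median 0.36), and beyond AAVS1 5 and 3. IER3 had 185 and 153 CPM in KO, 31.8 and 44.8 in CBE and 33.3 to 49.4 in the controls (log2 difference 2.17, SE 0.2, edgeR adjusted p 2.2e-08), and 38.9% of its exonic bases are shared with other genes. IER5 had 264 and 221 CPM in KO and 101 and 83.9 in CBE (log2 difference 1.40, SE 0.143, edgeR adjusted p 1.35e-07), and the AP-1 subunit JUNB had 169.7 and 145 in KO and 42.2 and 55.7 in CBE (log2 difference 1.71, SE 0.178, edgeR adjusted p 1.9e-07). JUN and ATF3 also were called higher in KO. NR4A3, an orphan nuclear receptor, had 10.6 and 4.11 CPM in KO and 0 in both CBE libraries (edgeR adjusted p 0.000477). With 3 counts per CBE library set as a floor, the mean of the KO libraries was 73.2-fold that floor, a ratio that the lower KO library does not reach. Both reads of a pair were counted, so 3 counts can stand for fewer than 3 fragments, and the ratio depends on the floor set. FOSL2, a further AP-1 subunit, was higher in CBE (215 and 234 against 419 and 435 CPM; log2 difference −0.93, SE 0.108, edgeR adjusted p 1.01e-06), as was FOS (log2 difference −0.60), so the AP-1 genes did not move as one. Of 17 NF-kB and inflammatory genes, 5 were called higher in KO and 1 higher in CBE (median 0.43), and 2 were called beyond AAVS1, both higher in KO. NFKBIA, the inhibitor induced by NF-kB itself, had 158 and 134 CPM in KO, 22.3 and 39.3 in CBE and 22.1 to 42.6 in the controls (log2 difference 2.29, SE 0.236, edgeR adjusted p 1.63e-07). TNF had 63.3 and 42.3 CPM in KO and 17.2 and 10.5 in CBE (log2 difference 1.89, SE 0.292, edgeR adjusted p 6.24e-05), while the chemokine CCL5 was the gene called higher in CBE (22.1 and 39.4 against 87.9 and 74.7; log2 difference −1.43, edgeR adjusted p 0.000243). CCL5 differed in the same direction between the AAVS1 controls (log2 difference −0.63, unadjusted edgeR p 0.0229) and was not called beyond AAVS1 (edgeR adjusted p 0.314). CCL5 lost its call without HOTSCRAMBL KO replicate 1 (adjusted p 0.0661) and without HOTSCRAMBL CBE replicate 1 (adjusted p 0.0774), and the NF-kB count of 6 was 3 without HOTSCRAMBL KO replicate 1, 2 without HOTSCRAMBL CBE replicate 1 and 3 without HOTSCRAMBL CBE replicate 2.

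Genes of the heat shock response and of chaperones in the endoplasmic reticulum divided, with 5 of 28 called higher in KO and 4 higher in CBE (median 0.01). HSPA1B (ENSG00000204388, chromosome 6, 31827738 to 31830254), the stress-induced HSP70, had 196 and 167 CPM in KO, 4.71 and 8.58 in CBE and 15.1 to 32.3 in the controls (log2 difference 4.83, SE 0.292, edgeR adjusted p 9.15e-12). It shares 36.6% of its exonic bases with another gene and has a near-identical copy, HSPA1A. That copy was not called (log2 difference 1.20, edgeR adjusted p 0.55). DNAJB1, the co-chaperone of HSP70, had 243 and 324 CPM in KO and 58 and 76.2 in CBE (log2 difference 2.08, SE 0.145, edgeR adjusted p 1.24e-10). XBP1 (ENSG00000100219, chromosome 22, 28794555 to 28800597), the transcription factor of the unfolded protein response, went the other way, with 162 and 149 CPM in KO, 429 and 419.7 in CBE and 164 to 182 in the controls (log2 difference −1.45, SE 0.12, edgeR adjusted p 2.6e-09). HSP90AB1, a constitutive HSP90, was also higher in CBE (762 and 755 against 1338 and 1266 CPM; log2 difference −0.78, SE 0.0879, edgeR adjusted p 6.59e-07). HSP90AA1 and CANX were called higher in CBE too (log2 difference −0.45 and −0.64). Among the genes of the endoplasmic reticulum, HERPUD1 and CRELD2 were called higher in KO (log2 difference 1.18 and 1.48), and HSPA5 was not called (−0.06). Neither the heat shock genes nor those of the endoplasmic reticulum therefore went all 1 way.

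ATF4 targets were higher in CBE. ATF4 is the transcription factor of the integrated stress response, and its targets supply amino acids and charge transfer RNAs. Of 31 genes, 17 were called higher in CBE and 1, the amino acid transporter SLC7A5, higher in KO (median −0.60, control median −0.04), and 6 were called beyond AAVS1, all higher in CBE. TRIB3 (ENSG00000101255, chromosome 20, 362835 to 397559), a pseudokinase that restrains ATF4 signalling, had 52.8 and 59.6 CPM in KO, 208 and 256 in CBE and 61.8 to 86.3 in the controls (log2 difference −2.04, SE 0.156, edgeR adjusted p 5.07e-10). DDIT4 (ENSG00000168209, chromosome 10, 72273919 to 72276036), an inhibitor of the growth kinase mTORC1, was above the controls after both edits, at 2876 and 3473 CPM in KO and 5108 and 6387 in CBE against 977 to 1400.0 (log2 difference −0.85, SE 0.0749, edgeR adjusted p 8.48e-09). WARS1, a transfer RNA synthetase, had 137 and 160.3 CPM in KO and 271 and 257 in CBE (log2 difference −0.83, SE 0.129, edgeR adjusted p 7.5e-05), and SLC3A2, the heavy chain of amino acid transporters, had 154 and 162 in KO and 277 and 254 in CBE (log2 difference −0.75, SE 0.124, edgeR adjusted p 0.000135). Genes of serine and one-carbon supply (PHGDH, PSAT1, PSPH, SHMT2, MTHFD2 and ALDH1L2) were among the 17, with log2 differences of −0.65, −0.65, −0.73, −0.67, −0.51 and −0.66; this group was picked out of the list after its values were seen. ATF4 itself had 333 and 314 CPM in KO and 321 and 319.7 in CBE (log2 difference 0.01, edgeR adjusted p 0.97). The count of 18 was 7 without HOTSCRAMBL KO replicate 1, 11 without HOTSCRAMBL KO replicate 2, 7 without HOTSCRAMBL CBE replicate 1, 10 without HOTSCRAMBL CBE replicate 2 and 6 in the fit of the 4 HOTSCRAMBL libraries alone.

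The response element through which ATF4 binds together with CEBP proteins was read as TGATGNAAN on either strand, where N is any base. Of the 31 ATF4 list genes, 26 matched a promoter window and 5 of these held the letters (19.2%), against 3.67% of all promoters and 1.92% of those of tested genes. Of the 15 called genes with a window, 2 held the letters, so most called genes lacked them. The stretch upstream of AARS1, a transfer RNA synthetase called higher in CBE, is shown with the match in capitals; it is chr16:70289507-70289714, minus strand.
AARS1: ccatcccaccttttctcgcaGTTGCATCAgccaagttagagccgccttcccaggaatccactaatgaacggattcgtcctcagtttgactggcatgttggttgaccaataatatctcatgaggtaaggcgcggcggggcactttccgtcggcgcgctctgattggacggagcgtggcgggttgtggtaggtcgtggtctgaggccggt
The match starts 188 bases before the start of transcription, on the opposite strand. AARS1 had 297 and 285 CPM in KO, 443 and 439 in CBE and 310.0 to 336 in the controls (log2 difference −0.60, SE 0.106, edgeR adjusted p 0.000313). It was chosen for the match after its values were seen; SLC3A2 is the other called gene with a match, and TRIB3 has none in its window.

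Interferon-stimulated genes were higher in CBE, several of them from levels near 0. Of 33 tested, 10 were called higher in CBE and 1, IRF7, higher in KO (median −1.08, control median 0.09). Beyond AAVS1, 3 were called, all higher in CBE, with a list median of −0.58. IFI44L (ENSG00000137959, chromosome 1, 78619902 to 78646145) had 0.918 and 0 CPM in HOTSCRAMBL KO, 35.8 and 38.9 in HOTSCRAMBL CBE and 0.424 to 1.28 in the controls (log2 difference −6.43, SE 0.684, edgeR adjusted p 1.04e-07). The fitted size rests on KO levels near 0 and ran from −13.08 to −5.29 over the alternatives. The CBE libraries were thus high, and the KO libraries were near 0 like the controls. MX1, a GTPase that blocks viruses, had 0.51 and 0.0894 CPM in KO and 9.34 and 13.7 in CBE (log2 difference −5.31, SE 0.974, edgeR adjusted p 0.000446), and its call was lost without HOTSCRAMBL KO replicate 2 (adjusted p 0.0668). USP18, which removes the ubiquitin-like modifier ISG15 and dampens interferon signalling, was at 0 in both KO libraries and at 8.06 and 10.4 CPM in CBE (edgeR adjusted p 0.000719). With 3 counts per KO library set as a floor, the mean of the CBE libraries was 64.3-fold that floor, a ratio that the lower CBE library does not reach. As for NR4A3, the ratio depends on the floor set. XAF1, an apoptosis-related gene that shares 38.3% of its exonic bases with another gene, had 61.5 and 104 CPM in KO and 155 and 207 in CBE (log2 difference −1.12, SE 0.159, edgeR adjusted p 2.08e-05). IRF7, a transcription factor of interferon genes, had 85 and 83.3 CPM in KO and 33 and 37.6 in CBE against 32.6 to 45.8 in the controls (log2 difference 1.26, SE 0.207, edgeR adjusted p 0.000131). The count of 11 was 5 without HOTSCRAMBL KO replicate 1, without HOTSCRAMBL KO replicate 2 and without HOTSCRAMBL CBE replicate 1, 6 without HOTSCRAMBL CBE replicate 2 and 4 in the fit of the 4 HOTSCRAMBL libraries alone.

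The interferon-stimulated response element was read on either strand as GAAA, any 2 bases and GAAA again. Windows were found for 26 of the 33 genes and 16 held the letters (61.5%), against 3.65% of all promoters. The upstream stretch of IFI44L, shown as the gene with the smallest p of the list, is chr1:78620264-78620447, plus strand, with matches 164 and 73 bases before the start.
IFI44L: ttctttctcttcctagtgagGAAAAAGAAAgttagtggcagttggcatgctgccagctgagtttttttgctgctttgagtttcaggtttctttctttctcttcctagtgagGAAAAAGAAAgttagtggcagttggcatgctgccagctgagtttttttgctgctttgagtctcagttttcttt
The letters were also present in 6 of the 8 called interferon genes with a window. The heat shock element, read as GAA, any 2 bases, TTC, any 2 bases and GAA, was found in 1 of 27 windows of its list (HSPA8, not called) and in 0.487% of all promoters.

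**Figure D5:**
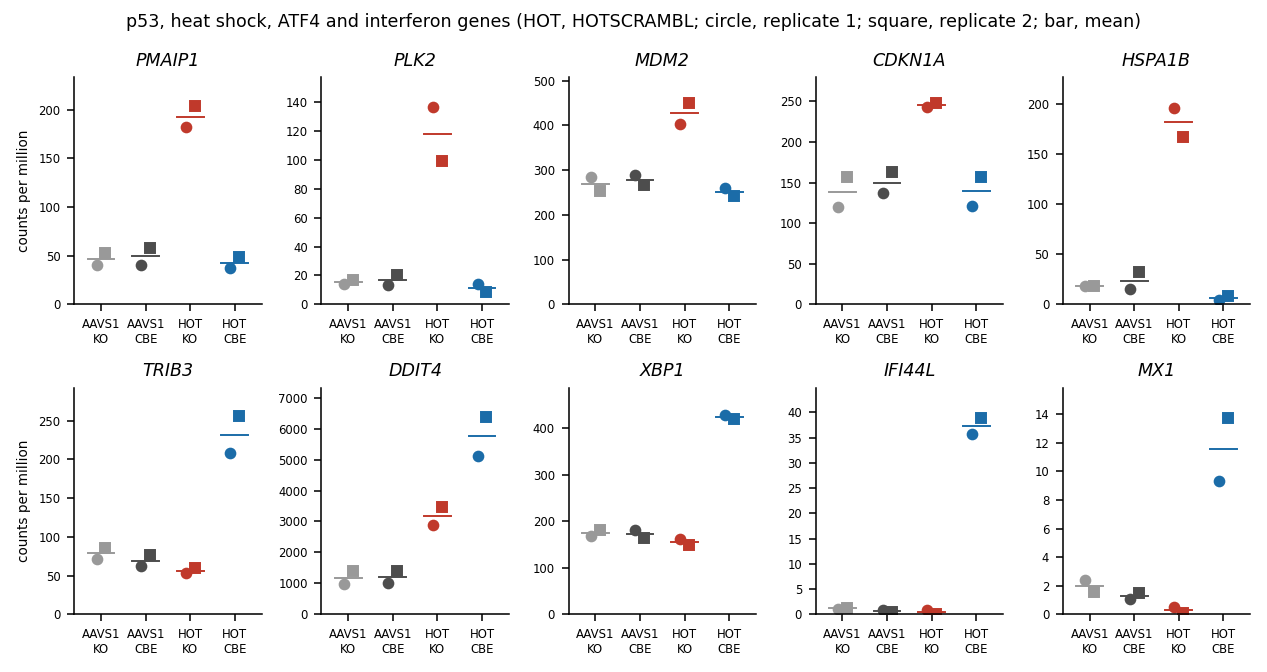
Levels in CPM in each library for p53 targets (PMAIP1, PLK2, MDM2, CDKN1A), HSPA1B, ATF4-list genes (TRIB3, DDIT4), XBP1 and interferon-stimulated genes (IFI44L, MX1); circles are replicate 1, squares replicate 2, bars the mean of the 2 libraries, and axes start at 0. The first 5 panels are highest in HOTSCRAMBL KO and the last 5 highest in HOTSCRAMBL CBE, for example TRIB3 at 208 and 256 CPM.

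DNA repair genes were called in small numbers, at 19.2% of double-strand break genes and 17.6% of base excision and mismatch repair genes. Both shares lay above that of all tested genes. Of 26 double-strand break repair genes, 4 were called higher in CBE and 1 higher in KO (median −0.22), where 8.47% of all tested genes were called and 3.97% were called higher in CBE. BRCA2, which acts in homologous recombination, had 49.5 and 46 CPM in KO, 127 and 97.1 in CBE and 78.1 to 85 in the controls (log2 difference −1.23, SE 0.184, edgeR adjusted p 3.84e-05), and MDC1, a scaffold at breaks, had 157 and 138 in KO and 235 and 283 in CBE (log2 difference −0.81, SE 0.139, edgeR adjusted p 0.000228). The count of 5 was 3 without AAVS1 KO replicate 1, without AAVS1 KO replicate 2 and without HOTSCRAMBL CBE replicate 1. Of 17 base excision and mismatch repair genes, 3 were called, all higher in CBE. The count of 3 was 0 without HOTSCRAMBL CBE replicate 1 and 1 without either HOTSCRAMBL KO library. Among 20 BCL2 family and apoptosis genes, 1 was called in each direction, near the 8.47% of all tested genes. CFLAR, an inhibitor of caspase 8, was the one higher in KO (350.2 and 389 against 243 and 204 CPM; log2 difference 0.72, SE 0.116, edgeR adjusted p 0.00011). The count of 2 was 1 when any 1 of the 8 libraries was left out.

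Cytosolic ribosomal protein genes were higher in KO by small amounts. Of 79 tested, 30 were called higher in KO and 1, RPSA, higher in CBE, with a median of 0.25 (0.15 and 0.40 in the pairs, control median −0.01), and 19 were called higher in KO beyond AAVS1. The median was 0.11 without HOTSCRAMBL CBE replicate 2, where 19 were called higher in KO and 3 higher in CBE, and 0.40 without HOTSCRAMBL CBE replicate 1. They took 3.99% and 4.47% of counts in HOTSCRAMBL KO, 3.18% and 3.36% in HOTSCRAMBL CBE and 1.31% to 1.58% in the controls, so both edits stood far above the controls and KO stood higher. RPS19 had 1208 and 1272 CPM in KO, 539 and 539.5 in CBE and 345 to 380.1 in the controls (log2 difference 1.20, SE 0.0906, edgeR adjusted p 4.07e-10). These libraries ordered as KO, CBE and controls from high to low. RPL23A had 585 and 684 CPM in KO and 225 and 256 in CBE (log2 difference 1.40, SE 0.11, edgeR adjusted p 1.09e-09), and RPL28 had 858 and 906 in KO and 434 and 513 in CBE (log2 difference 0.90, SE 0.099, edgeR adjusted p 4.32e-07). Ribosomal protein genes have many processed copies, and reads that fit several positions were not counted. Ribosome biogenesis genes, by contrast, had 6 of 33 called, all higher in CBE (median −0.16). NPM1, a nucleolar chaperone, had 277 and 296 CPM in KO and 455 and 434 in CBE (log2 difference −0.63, SE 0.111, edgeR adjusted p 0.000318), and lost its call without HOTSCRAMBL KO replicate 1 (adjusted p 0.0533). That count of 6 lay between 0 and 3 whenever any library was left out.

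Mitochondrially encoded transcripts, which are cut from long shared precursors, did not all differ in the same direction. Of 13, 6 were called higher in KO and 2 higher in CBE. All 8 calls were within the subunits of complexes I, III and IV: 5 of 7 genes of complex I were higher in KO, and 2 of the 3 cytochrome oxidase genes were higher in CBE. Beside MT-ND5, MT-ND4L had 1625 and 1882 CPM in KO and 623 and 669 in CBE (log2 difference 1.44, SE 0.086, edgeR adjusted p 6e-12), and 2.4% of its bases are shared with MT-ND4. MT-ND4 had 13057 and 13983 CPM in KO and 7812 and 8049 in CBE (log2 difference 0.77, SE 0.0607, edgeR adjusted p 9.29e-10), and MT-ND6, which lies on the other strand, had 1667 and 2178 in KO and 888 and 1009 in CBE (log2 difference 1.00, SE 0.0898, edgeR adjusted p 1.23e-08). For these subunits the KO libraries were above both the CBE libraries and the controls. MT-CO2 had 1859 and 2491 CPM in KO, 3195 and 3565 in CBE and 1819 to 2195 in the controls (log2 difference −0.65, SE 0.076, edgeR adjusted p 1.2e-06; singled out, with MT-CO1, after its value was seen), while MT-CO1 had 9019.6 and 10514 in KO and 9399 and 10172 in CBE and a log2 difference of −0.01 (edgeR adjusted p 0.981). The 13 transcripts, MT-ND5 included, summed to 69770 and 76370 CPM in KO, 43300 and 45910 in CBE and 33160 to 36280 in the controls. All genes of the mitochondrial genome, not only these 13, took 10.7% and 11.9% of unscaled counts in KO and 11.6% and 10.2% in CBE. Those shares overlap, and the controls had 6.77% to 7.23%. Of 75 nuclear genes of oxidative phosphorylation, 2 were called higher in KO and 1 higher in CBE, a share of 4.0%, below the 8.47% over all tested genes, and the count of 3 was 0 or 1 when any library was left out.

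Metabolic lists were mixed. Glycolysis and hypoxia genes had 7 of 31 called higher in CBE and 4 higher in KO (median −0.22). VEGFA, the angiogenic factor induced by low oxygen, had 369.7 and 355 CPM in KO, 708 and 772 in CBE and 637 to 720.1 in the controls, so the KO libraries were low (log2 difference −1.03, SE 0.096, edgeR adjusted p 2.26e-08). SLC2A3, a glucose transporter, was above the controls after both edits, at 138 and 160.3 CPM in KO and 333 and 313 in CBE (log2 difference −1.12, SE 0.131, edgeR adjusted p 1.26e-06). The glycolytic enzyme ENO1 had 346 and 511 in KO and 709.7 and 739.9 in CBE, also above the controls at 223 to 276 (log2 difference −0.78, SE 0.11, edgeR adjusted p 1.93e-05). Both of these genes were therefore highest in CBE without being low in KO. PFKFB3, which sets the level of a glycolytic activator, was higher in KO (126 and 124 against 58.1 and 52.6 CPM; log2 difference 1.16, SE 0.171, edgeR adjusted p 3.18e-05). The count of 11 was 6 without HOTSCRAMBL KO replicate 1, 7 without HOTSCRAMBL KO replicate 2, 5 without HOTSCRAMBL CBE replicate 1 and 6 without HOTSCRAMBL CBE replicate 2. Cholesterol and fatty acid genes had 3 called in each direction of 28 (21.4% called, against 8.47% of all tested genes). The regulator SREBF1 was higher in CBE (135 and 150.0 against 263 and 291 CPM; log2 difference −0.96, SE 0.124, edgeR adjusted p 5.33e-06), as was the desaturase SCD (133 and 167 against 266 and 297; log2 difference −0.90, SE 0.131, edgeR adjusted p 2.64e-05), whereas the isoprenoid enzyme IDI1 was higher in KO (73.3 and 114 against 30.6 and 21.8; log2 difference 1.78, SE 0.242, edgeR adjusted p 1.14e-05). That count of 6 was 3 when any 1 HOTSCRAMBL library was left out.

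Actin cytoskeleton genes had 9 of 35 called higher in CBE and 3 higher in KO (median −0.21). EZR, which ties actin to the membrane, had 54.2 and 62.8 CPM in KO, 171 and 151 in CBE and 89 to 109 in the controls (log2 difference −1.45, SE 0.167, edgeR adjusted p 8.56e-07). PFN1, which feeds actin monomers to growing filaments, had 175 and 239 CPM in KO and 404 and 451 in CBE (log2 difference −1.07, SE 0.121, edgeR adjusted p 7.29e-07), and TPM4, a tropomyosin, had 133 and 131 in KO and 246 and 249.8 in CBE (log2 difference −0.91, SE 0.126, edgeR adjusted p 1.38e-05). The edits lay on opposite sides of the controls for EZR and TPM4, while KO overlapped the controls for PFN1. PLEC, the large linker protein plectin, was the reverse: its 2037 and 1588 CPM in KO lay near the controls (1754 to 2364) and CBE had 935 and 919 (log2 difference 0.95, SE 0.0861, edgeR adjusted p 1.41e-08). Among 14 tested long non-coding RNAs of a further list, 3 were called higher in KO and 1 higher in CBE. MALAT1 had 1242 and 1198 CPM in KO and 829 and 759.9 in CBE (log2 difference 0.62, SE 0.0879, edgeR adjusted p 2.04e-05), with 83.7% of its exonic bases shared with other annotated genes, and TUG1 had 135 and 127 in KO and 219 and 235 in CBE (log2 difference −0.79, SE 0.133, edgeR adjusted p 0.000186). PVT1 was higher in KO as well (log2 difference 0.52, edgeR adjusted p 0.000374). Counting MALAT1 and NEAT1 together, these nuclear RNAs took 0.235% and 0.229% of counts in KO and 0.202% and 0.200% in CBE.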

How the data were processed

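The authors deposited 1 table of read counts per gene for all 8 pull-down libraries, made with featureCounts 2.0.6 on GRCh38, per the submitters' processing notes. Per the file headers, reads were counted without regard to strand, reads matching several positions or genes were not counted, and both reads of a pair were counted, so 71.8% to 74.9% of values from 1 to 20 are even. The aligner is not given in the sources used here. The table holds 63140 genes, of which 42291 carry a symbol and 35176 have a count, and 2 records broken over lines were rejoined.

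The members, gene lists and motifs were chosen with earlier results of these data known. Genes with enough counts (filterByExpr, minimum count 10) were kept, leaving 24057, and tested in R 4.3.3 with edgeR 4.0.16 (TMM scaling, quasi-likelihood test, robust) in 1 model with a term for each group and for the labelled line, over all 8 libraries. P-values were adjusted by Benjamini-Hochberg over all genes tested, with a threshold of 0.05. The replicate number was kept as a block because the titles give the same line to same-numbered libraries. The deviations of same-numbered HOTSCRAMBL KO and CBE libraries from their group means had a correlation of 0.00851 over all genes and 0.0411 over genes above the median level, so the data themselves gave little sign of pairing. Log2 differences within pairs used a prior count of 2. The fit was first tested on simulated data.

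The genes named were, among called genes with a symbol that differed the same way in both pairs, the 10 with the smallest p in each direction, up to 4 called members of each list with the smallest p, and PPP1R12C. Promoter windows were taken from RefSeq (GRCh38.p14) by symbol and matched 12372 of the 24057 tested genes. Python 3.11.15, pandas 2.3.3 and numpy 2.4.6 were used for the lists and windows. Alternatives were other scalings and filters, DESeq2 1.42.0, limma-voom (limma 3.58.1), no replicate block, thinning, leaving out each library, and the 4 libraries alone. Halved counts and the earlier edgeR dispersion were added after seeing the data. Some genes of the lists are counted but not reported here by name.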

Additional observations from a re-analysis of the deposited data

Results flagged for a closer look

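The difference between KO and CBE was larger or smaller with HOTSCRAMBL than with AAVS1 for 767 genes, by edgeR's test of the difference itself. Of the 115 named genes, 96 were among them, although these had been chosen on the direct comparison, which uses the same HOTSCRAMBL libraries. The log2 difference beyond AAVS1 was 2.19 for MT-ND5, 1.63 for TSPOAP1, 2.11 for XACT, 2.25 for CHI3L1 and 8.2 for ARC. It was 2.12 for SAMHD1, 7.45 for RASD1, 3.9 for IER5L, 1.36 for MT-ND4L and 1.43 for CCR2. Among genes higher in CBE it was −3.24 for SYNPO2, −1.9 for NUCB2, −2.23 for TRIB3, −2.1 for H3C2 and −1.92 for SHANK1. It was −1.39 for H1-4, −1.48 for XBP1, −2.26 for MLC1, −1.97 for SHOX2 and −1.85 for H3C7. Each of these 20 genes had an edgeR adjusted p under 0.05 in that test, and each kept the sign of its direct difference. No sample was tested for standing apart from its group, because every group held 2 libraries.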

How the results depend on the processing

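The count of genes called between the HOTSCRAMBL edits was 4128 with DESeq2 and 569 with the 4 HOTSCRAMBL libraries alone; the causes were not tested beyond the smaller number of samples in the second. In that smaller fit 6 immediate early, 5 p53, 2 HOXA, 6 lysosome, 5 HOXA9 cofactor and 19 ribosomal protein genes were called. DESeq2 called 35 genes between the AAVS1 controls and 2275 beyond AAVS1. With no replicate block the counts were 1649 between the edits and 503 beyond AAVS1, although the replicate numbers show little sign of pairing in the data. Leaving out 1 library at a time, where a group left with 1 library is assumed to vary like the others, gave 633 to 1519 between the edits, 0 to 0 between the controls and 226 to 372 beyond AAVS1. The other scalings and filters, limma-voom, thinning, halved counts and the earlier edgeR dispersion kept the direct count between 1917 and 2266. The split by direction depended on the method. It was 1033 higher in KO and 1059 higher in CBE with no scaling beyond total counts. With the earlier edgeR dispersion it was 1056 and 1210, and with DESeq2 size factors in edgeR 1154 and 823. Of the 115 named genes, 85 kept their call under every alternative run (19, or 18 for the 4 mitochondrial genes, whose rows one alternative leaves out), 30 lost it at least once and 0 reversed. The mitochondrial list gave no value where mitochondrial rows were left out. Without HOTSCRAMBL KO replicate 2 the median over all genes was −0.20. The medians of HLA class II genes (−0.43 to 2.64), myeloid factors (−0.27 to 0.05), granule genes (−0.12 to 0.24) and chaperones (−0.11 to 0.17) took both signs over the alternatives. So did those of apoptosis genes (−0.07 to 0.15), oxidative phosphorylation genes (−0.10 to 0.06) and the listed long non-coding RNAs (−0.03 to 0.14).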
